A study of Mus musculus with 8 samples.

Results

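The genes described here encode the PDGF chains Pdgfa, Pdgfb, Pdgfc and Pdgfd, the Kit ligand Kitl and its receptor Kit, the macrophage growth factor Csf1 and the dendritic cell growth factor Flt3l. They were taken by symbol from the deposited gene table, where all 8 are present among 36048 genes, and each was followed across 3 populations taken from skeletal muscle of mice. The endothelial cells (EC, n = 3 libraries), which line the vessels, and satellite cells (SC, n = 2, numbered 1 and 3), the stem cells of muscle, were sorted from hindlimb muscles, with about 100000 cells for a library. Single muscle fibres (SMF, n = 3) came from the EDL muscle, rested for 3 h, and 100 intact fibres were picked by hand for each library. The labels give no strain, age, sex, genotype or treatment, do not name the sort markers and give no animal for any replicate. The p-values therefore reflect library-to-library spread alone, and this spread may be technical. Fibres differed from the sorted cells in muscle of origin and in the way of isolation too, which cannot be told apart from the population.

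PDGFs are secreted dimers that signal through the receptor kinases PDGFR-alpha and PDGFR-beta. The A, B and C chains bind PDGFR-alpha, and the B and D chains bind PDGFR-beta, through which endothelial PDGF-B recruits pericytes to growing vessels. Kitl, Csf1 and Flt3l are structurally related short helical cytokines that can sit on the membrane or be shed, and their receptors Kit, Csf1r and Flt3 belong to the same class III receptor kinase family as the PDGF receptors. Kitl maintains blood stem cells, mast cells and melanocytes, Csf1 maintains macrophages, and Flt3l maintains dendritic cells.

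Values are FPKM, which divide fragments by transcript length and by the size of the library, so levels of different genes are compared per length. From the ratio of deposited coverage to FPKM, 278 to 368 Mb of bases were aligned in EC and SC libraries and 525 to 581 Mb in SMF libraries. A single fragment on a transcript of 1 kb was worth between 0.272 and 0.360 FPKM in EC or SC libraries and between 0.172 and 0.190 in SMF libraries. The markers listed for each label followed it. Summed over 5 genes, endothelial markers stood at 934 to 965 FPKM in EC, 16.7 to 22.1 in SC and 2.56 to 2.98 in SMF, satellite cell markers at 13.7 to 23.5, 269 to 317 and 5.26 to 5.85, and fibre markers at 10.2 to 15.8, 130.0 to 199 and 20439 to 21857. Tek alone gave 12.8 and 12.1 of the endothelial sum in SC. Vcam1 and Itga7 made up most of the satellite cell sum in EC, where Pax7 and Calcr were listed at 0. EC replicate 2 stood apart from the other EC libraries in markers of other cells, as described below, and in the number of genes detected. It had 20071 genes above 0 and 12640 at 1 FPKM or more. EC replicate 1 had 24670 and 13925, and EC replicate 3 had 25139 and 14314. In bulk RNA, fewer cells of a type and less RNA per cell cannot be told apart.

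In the mouse annotation (RefSeq, GRCm38.p6) Pdgfa spans 138976014 to 139000792 and Kit 75574987 to 75656722 on chromosome 5, and Pdgfc spans 81036416 to 81214040 and Csf1 107741048 to 107760469 on chromosome 3. Pdgfb lies on chromosome 15 at 79995865 to 80024614, Pdgfd on chromosome 9 at 6168363 to 6534284, Kitl on chromosome 10 at 100015615 to 100100416 and Flt3l on chromosome 7 at 45131183 to 45136490.

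Genes with at least 1 FPKM in at least 2 libraries were tested with limma, and 16700 genes passed, including 7 of the 8 described here. Pdgfc did not pass. Pdgfd and Kit reached 1 FPKM in the 3 EC libraries and in no other, and Flt3l in 2 EC libraries and in no other, so these genes could pass only if they were high in EC. Differences are of log2(FPKM + 1), a scale on which low genes appear to change less than they do, and a call needed an adjusted p (Benjamini-Hochberg) under 0.05.

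**Figure D1:**
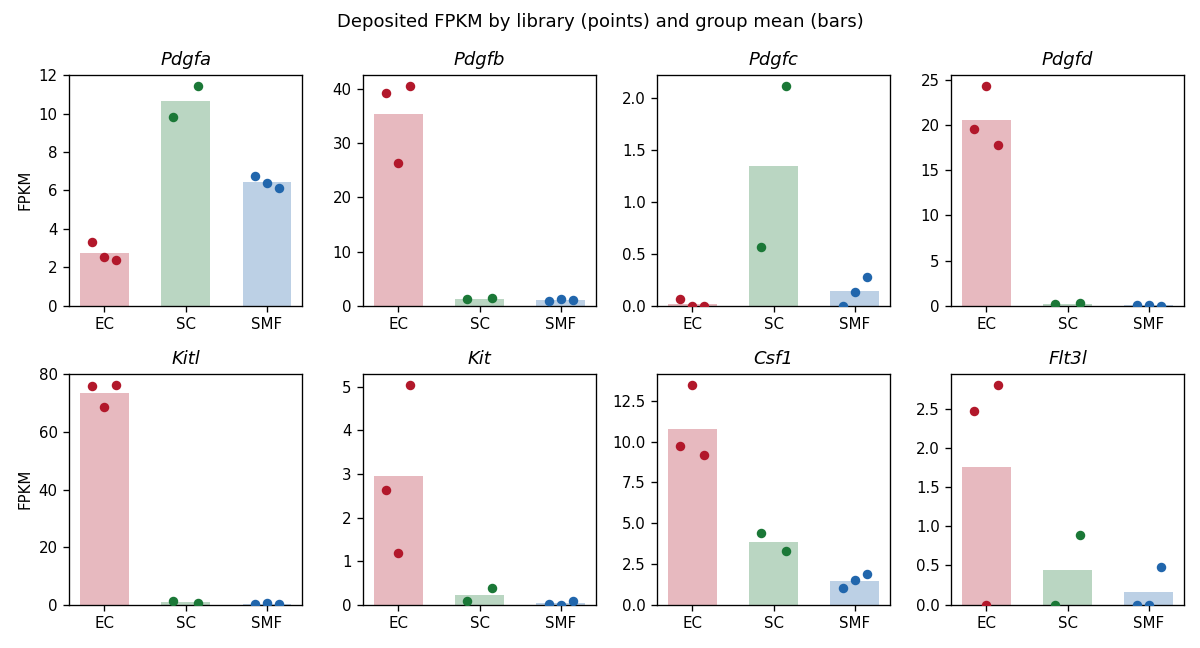
Deposited FPKM of each gene (y axis, linear, own range in each panel) in EC, SC and SMF libraries (points), with the group mean (bars, n = 3, 2 and 3). Pdgfb, Pdgfd, Kitl, Kit and Csf1 were highest in every EC library, whereas the group means of Pdgfa and Pdgfc were lowest in EC and highest in SC.

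The endothelial libraries carried the B and D chains of PDGF. Pdgfb, the ligand that binds both PDGF receptors, stood at 39.2, 26.3 and 40.6 FPKM in EC, against 1.28 and 1.38 in SC and 0.785, 1.20 and 0.982 in SMF. Every EC library lay far above every other library, with EC replicate 2 the lowest of the 3. EC exceeded SC by 3.94 (SE 0.21, adjusted p = 7.59e-06), and EC minus SMF was 4.17 (SE 0.19, adjusted p = 9.07e-07).

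Pdgfd, a PDGFR-beta ligand that is secreted as a latent protein and freed by proteolysis, stood at 19.5, 24.3 and 17.8 FPKM in EC, against 0.196 and 0.284 in SC and 0.0547, 0.0551 and 0 in SMF. Here EC replicate 2 was the highest. The values outside EC rest on at most about 2.46 fragments of 100 bases for a library, while those in EC rest on 165 to 279. For EC minus SC the difference was 4.11 (SE 0.16, adjusted p = 1.96e-06), and EC minus SMF was 4.37 (SE 0.15, adjusted p = 2.56e-07). Both calls, and those of Pdgfb, held under all 16 alternatives of the calculation.

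The Pdgfd gene has 2 transcripts in the deposited table that start near each other and end apart, ENSMUST00000168039 with 1795 bases and ENSMUST00000058692 with 3052 bases. The shorter one took 94.7%, 40.2% and 68.6% of their summed FPKM in EC replicates 1, 2 and 3, so the 3 EC libraries did not share a main transcript. Estimates for overlapping transcripts are uncertain, and these shares were not tested. The gene Ddi1 lies within Pdgfd on the other strand (chromosome 9, 6265028 to 6266547, GRCm38.p6) and was listed at 1.22, 3.46 and 2.93 FPKM in EC, against 0 and 0.121 in SC and 0 in the 3 SMF libraries. Whether strand was used in counting is not given in the sources used here, so reads of the 2 genes may not be told apart.

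The A chain ran the other way. Pdgfa, whose product acts through PDGFR-alpha, stood at 3.34, 2.54 and 2.39 FPKM in EC, against 9.81 and 11.4 in SC and 6.75, 6.37 and 6.15 in SMF. None of the 3 groups overlapped another. The difference EC minus SC was -1.64 (SE 0.16, adjusted p = 0.000165), and EC minus SMF was -0.99 (SE 0.14, adjusted p = 0.00048), and both calls held under all 16 alternatives. Among 16700 genes, the median difference EC minus SMF was 0.85, so Pdgfa lay 1.84 below it.

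Pdgfc, a latent PDGFR-alpha ligand, was listed at 0.0613, 0 and 0 FPKM in EC, against 0.566 and 2.12 in SC and 0, 0.136 and 0.277 in SMF. Both SC libraries were above every other library, but they differed from each other and rest on about 9.02 and 29.9 fragments. Without a filter on low values, EC minus SC was -1.11 (SE 0.28, adjusted p = 0.0295) and SC minus SMF was 0.96 (SE 0.28, adjusted p = 0.0306). Since Pdgfc stood below the filter, these values describe a gene near the limit of detection.

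Taken as a sum, the 4 PDGF chains reached 62.1, 53.2 and 60.8 FPKM in EC, against 11.9 and 15.2 in SC and 7.59, 7.77 and 7.40 in SMF. Within this sum, Pdgfb made up 59.8% ± 9.11 and Pdgfd 35.5% ± 8.96 in EC (SD, n = 3), while Pdgfa made up 3.94% to 5.38%. In SC, Pdgfa held 82.8% and 75.2% of the sum, and in SMF it held 88.9%, 82.0% and 83.0%. The share of Pdgfb was 9.08% and 10.8% in SC and 10.3% to 15.5% in SMF. Shares within a library do not depend on how the libraries are scaled against each other.

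**Figure D2:**
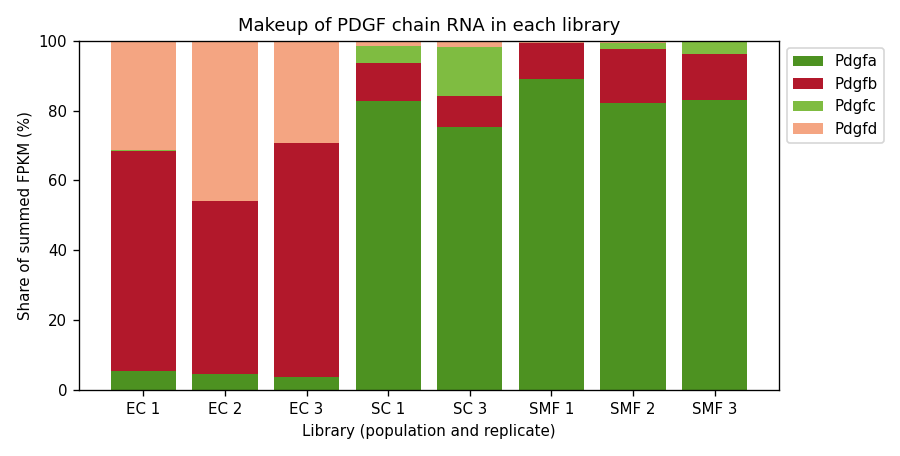
Share of each PDGF chain (y axis, percent of the summed FPKM of Pdgfa, Pdgfb, Pdgfc and Pdgfd) in each of the 8 libraries (x axis). Pdgfb and Pdgfd together filled nearly all of the bar in every EC library, and Pdgfa filled 75.2% to 88.9% in SC and SMF.

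Kitl was the most abundant of the 8 genes in EC. It stood at 75.9, 68.5 and 76.5 FPKM in EC, against 1.36 and 0.671 in SC and 0.231, 0.548 and 0.243 in SMF. The EC libraries lay close together and far above all others. EC minus SC was 5.23 (SE 0.19, adjusted p = 1.52e-06), which was the 57th highest among 16700 genes, and EC minus SMF was 5.81 (SE 0.17, adjusted p = 1.62e-07), the 64th highest.

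In the deposited TPM table, where transcript abundance is scaled to a fixed total, Kitl stood at 72.0, 60.9 and 119.8 in EC, so EC replicate 3 was apart from the others there and not in FPKM. Both calls held in the TPM table. The transcript table used here lists only 1 Kitl transcript, ENSMUST00000020129 with 9 exons and 1260 bases, at 5.82, 10.9 and 9.81 FPKM in EC, so the other transcripts of Kitl were not analysed here.

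Kit, the receptor of Kitl, was low everywhere. Its values were 2.64, 1.18 and 5.05 FPKM in EC, against 0.0739 and 0.379 in SC and 0.0192, 0 and 0.0899 in SMF. Every EC library was above the others, with EC replicate 3 the highest and EC replicate 2 the lowest of the EC libraries. Between EC and SC the difference was 1.58 (SE 0.39, adjusted p = 0.0144), and the call was lost without SC replicate 1 (adjusted p = 0.0900) and in a fit of EC and SC alone (adjusted p = 0.0514). The difference EC minus SMF was 1.81 (SE 0.35, adjusted p = 0.00213) and was called in all 16 alternatives. The ratio of Kitl to Kit was 28.7, 58.1 and 15.1 in EC replicates 1, 2 and 3.

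The 6 mast cell markers in the table, cells that depend on Kit, summed to 4.03, 1.22 and 5.04 FPKM in EC, against 0.919 and 2.50 in SC and 0 to 0.263 in SMF. The protease gene Cpa3 stood at 1.57, 0 and 2.67 FPKM in EC replicates 1, 2 and 3, in the order of Kit, whereas Hdc, the enzyme of histamine synthesis, stood at 0.717, 1.22 and 0.791 and made up the whole sum of EC replicate 2. The tryptase gene Tpsb2 was the 1 marker listed at 0 in every EC library. The part of mast cells in the Kit values was not tested.

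Csf1, the ligand of the macrophage receptor Csf1r, was highest in EC and lowest in SMF as deposited. It stood at 9.76, 13.5 and 9.16 FPKM in EC, against 4.36 and 3.32 in SC and 1.01, 1.51 and 1.85 in SMF. The 3 groups did not overlap. The difference EC minus SC was 1.28 (SE 0.23, adjusted p = 0.00335), and EC minus SMF was 2.26 (SE 0.20, adjusted p = 3.23e-05), and both were called in all 16 alternatives. The step between SC and SMF was lost under the 3 other scalings, as given with that comparison. Macrophage markers summed over 13 genes to 68.4, 16.2 and 88.5 FPKM in EC, against 34.7 and 39.6 in SC and 2.06, 6.32 and 4.71 in SMF. Between groups these sums ran from EC to SMF in the same order as Csf1 except in EC replicate 2, which had the highest Csf1 and the lowest macrophage sum of the EC libraries. Within groups, Csf1 was higher but the sum lower in EC replicate 1 than in 3. The same held for SC replicate 1 against 3 and SMF replicate 3 against 2. SMF replicate 1, by contrast, was the lowest of the SMF libraries in both Csf1 and the sum. The gene Lyz2 gave 43.7, 7.94 and 62.3 of the sum in EC, 22.8 and 24.4 in SC and 0.269, 3.16 and 1.59 in SMF. The part of macrophages in the Csf1 values was not tested. The longest listed transcript, ENSMUST00000014743 with 9 exons and 4176 bases, held 79.1% to 97.5% of the listed Csf1 FPKM in EC, 100% in both SC libraries and 85.7% to 92.2% in SMF.

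Flt3l was at the limit of detection. It was listed at 2.47, 0 and 2.81 FPKM in EC, against 0 and 0.887 in SC and 0, 0 and 0.474 in SMF, and the highest of these values rests on about 8.99 fragments. The groups overlapped through EC replicate 2, and neither EC minus SC (0.78, SE 0.59, adjusted p = 0.344) nor EC minus SMF (1.05, SE 0.53, adjusted p = 0.111) was called. Without EC replicate 2 both were called (1.40, adjusted p = 0.0197, and 1.68, adjusted p = 0.0033). That fit keeps the 2 EC libraries through which Flt3l passed the filter and drops the EC library listed at 0. Nothing is read from these calls beyond their dependence on 1 library.

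**Figure D3:**
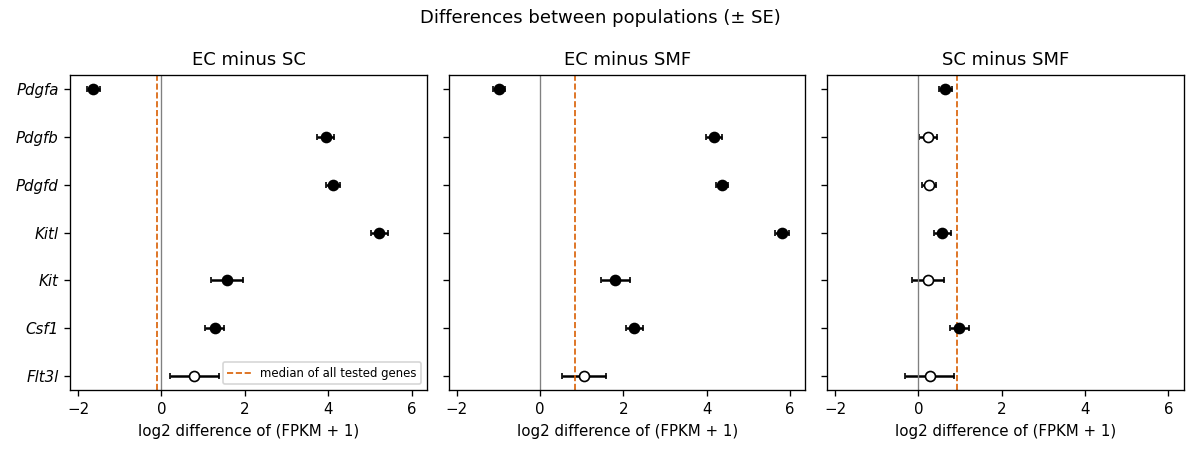
Difference of log2(FPKM + 1) between populations (x axis, limma estimate ± SE) for the 7 tested genes, with filled points for adjusted p under 0.05, open points otherwise, and a dashed line at the median of all 16700 tested genes. Pdgfb, Pdgfd and Kitl lay 3.94 to 5.81 above 0 in both comparisons of EC, Pdgfa lay below 0 in both, and all differences SC minus SMF were under 1.

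Of the 7 tested genes, 5 were called higher in EC than in SC and 1 lower, where 37.7% of all tested genes were called, 16.4% higher and 21.2% lower. Likewise 5 were called higher in EC than in SMF and 1 lower, where 66.3% of all tested genes were called, 55.5% higher and 10.8% lower. Since passing the filter favoured genes high in EC, nothing more is read from these counts. Scaling changed the split of calls over all genes. Calls higher in EC made up 43.7% of all calls against SC as deposited. The share was 54.0% when libraries were scaled by the median of ratios, 43.4% when scaled by the upper quartile, and 62.6% when the 50 genes most abundant in a group were left out of the library size. Against SMF, in the same order of scalings, these shares were 83.7%, 53.0%, 57.0% and 71.2%. The median EC minus SMF over all genes moved from 0.85 as deposited to 0.09, 0.20 and 0.55, and EC minus SC from -0.11 to 0.01, -0.10 and 0.14. Relative to the median of the same scaling, Kitl lay 4.91 to 4.95 above it in EC minus SMF under all 4 scalings, and Pdgfa lay 1.84 to 2.25 below it.

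The promoters of Kitl and Pdgfd, both high in EC, and of Pdgfa, which was low there, are shown for comparison. RefSeq windows (GRCm38.p6) from 250 bases before to 50 after an annotated start were matched for 7 of the 8 genes, and capitals mark motif matches on either strand. The letters searched for the ETS family were AGGAAG. For the GATA family of factors the search used AGATAA. The box bound by Sp1 was searched as GGGCGG. The TATA box, where it was present, was taken as TATAAA. For Pdgfa 2 windows were matched, and its other starts are not shown.
Kitl, chr10:100015571-100015870, plus strand: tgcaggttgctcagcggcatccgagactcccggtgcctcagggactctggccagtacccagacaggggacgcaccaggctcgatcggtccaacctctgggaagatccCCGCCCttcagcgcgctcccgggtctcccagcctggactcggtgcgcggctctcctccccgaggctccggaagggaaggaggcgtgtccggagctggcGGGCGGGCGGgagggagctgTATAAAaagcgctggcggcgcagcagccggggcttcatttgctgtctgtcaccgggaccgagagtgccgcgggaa
Pdgfd, chr9:6168236-6168535, plus strand: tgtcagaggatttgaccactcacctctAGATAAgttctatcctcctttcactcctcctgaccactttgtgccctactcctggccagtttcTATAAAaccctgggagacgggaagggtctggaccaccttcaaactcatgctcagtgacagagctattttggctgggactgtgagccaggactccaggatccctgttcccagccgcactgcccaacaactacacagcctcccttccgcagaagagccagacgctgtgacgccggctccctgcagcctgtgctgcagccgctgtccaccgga
Pdgfa, chr5:138994232-138994531, minus strand: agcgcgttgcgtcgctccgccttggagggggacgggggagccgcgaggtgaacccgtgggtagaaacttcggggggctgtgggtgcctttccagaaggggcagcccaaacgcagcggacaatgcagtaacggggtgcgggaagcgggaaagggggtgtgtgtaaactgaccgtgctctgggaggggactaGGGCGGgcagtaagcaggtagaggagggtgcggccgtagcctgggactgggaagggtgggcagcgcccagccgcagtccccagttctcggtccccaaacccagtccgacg
Pdgfa, chr5:138994895-138995194, minus strand: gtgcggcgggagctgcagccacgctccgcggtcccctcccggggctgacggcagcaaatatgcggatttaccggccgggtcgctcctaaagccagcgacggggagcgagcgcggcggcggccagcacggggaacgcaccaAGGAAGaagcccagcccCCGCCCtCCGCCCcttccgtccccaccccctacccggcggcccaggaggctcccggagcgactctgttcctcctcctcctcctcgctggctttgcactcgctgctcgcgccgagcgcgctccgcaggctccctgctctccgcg
The Kitl window holds a TATA box that begins 25 bases before the start and 3 Sp1 boxes, of which the 2 nearest to the start share bases. The Pdgfd window holds 1 GATA motif and 1 TATA box, which lies 160 bases before the start, and no Sp1 box, and both listed Ensembl transcripts of Pdgfd begin downstream of this window, at 6168612 and 6168661. The 1 listed Kitl transcript begins downstream of its window too, at 100015916. The RefSeq spans of Pdgfd and Kitl begin inside these windows, at 6168363 and 100015615, upstream of the starts used here. Motif distances therefore depend on the start taken. The Pdgfa windows hold 1 and 2 Sp1 boxes, and 1 of them holds an ETS motif. No matches of different motifs overlapped in these windows. Over all 32851 windows, 35.4% hold the ETS motif, 11.2% the GATA motif, 35.7% the Sp1 box and 13.6% the TATA box. The Pdgfd window has 8 CpG pairs and the Kitl window 28, while the Pdgfa windows have 24 and 37, against a median of 7 over all windows. These matches describe the letters only.

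Between SC and SMF, Pdgfa, Kitl and Csf1 were called as deposited, and each call was lost or turned under other scalings. As deposited, 3 of the 7 tested genes were called higher in SC than in SMF and 0 lower, where 65.1% of all tested genes were called, 56.5% higher and 8.57% lower, and 0 were lower at an unadjusted p under 0.05. These were Csf1 (0.98, SE 0.23, adjusted p = 0.0057), Pdgfa (0.64, SE 0.16, adjusted p = 0.00839) and Kitl (0.58, SE 0.19, adjusted p = 0.0309). Over all genes, SC minus SMF had a median of 0.93 without rescaling, against 0.12, 0.31 and 0.40 with the 3 rescalings. Pdgfa lay below it by 0.28 as deposited and by 0.90, 0.79 and 0.70 under the others. Pdgfa was called lower in SC under median-of-ratios scaling (-0.78, adjusted p = 0.00386) and upper-quartile scaling (-0.48, adjusted p = 0.0302), and stood at -0.30 (adjusted p = 0.207) without the most abundant genes. The calls of Csf1 and Kitl were lost under all 3 (adjusted p = 0.457 to 0.744 for Csf1 and 0.495 to 0.981 for Kitl). The call of Pdgfa was also lost without SC replicate 3 (adjusted p = 0.0556), and that of Kitl without SC replicate 1, SMF replicate 1 or SMF replicate 3 (adjusted p = 0.205, 0.0855 and 0.0845). Pdgfb (0.23, adjusted p = 0.357), Pdgfd (0.26, adjusted p = 0.202), Kit (0.23, adjusted p = 0.613) and Flt3l (0.27, adjusted p = 0.702) were not called as deposited. Calls higher in SC made up 86.8% of all calls as deposited, and 51.2%, 62.1% and 67.1% under the other scalings.

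**Figure D4:**
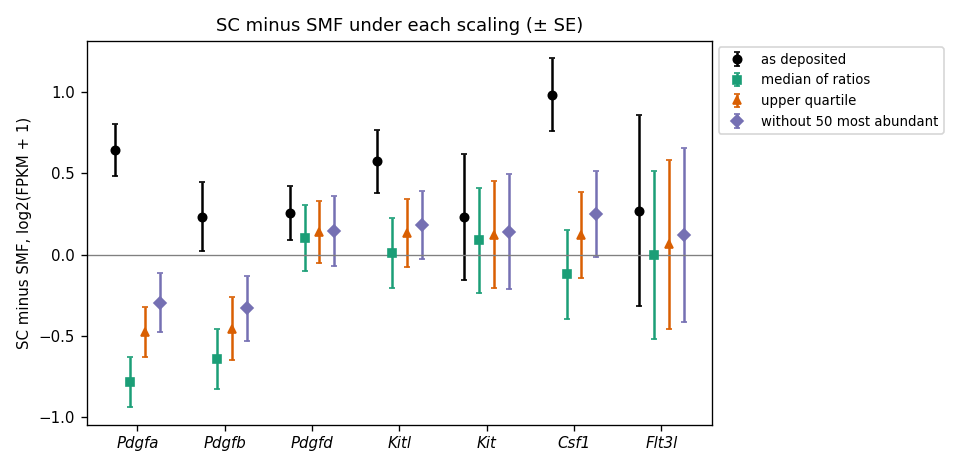
Difference SC minus SMF of log2(FPKM + 1) (y axis, limma estimate ± SE) for the 7 tested genes as deposited and under 3 other scalings. Pdgfa and Pdgfb lay above 0 as deposited and below 0 under the other 3, and Csf1 moved from 0.98 to between -0.12 and 0.25.

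The receptors of these ligands were measured in the same libraries. Pdgfrb, the receptor of pericytes and smooth muscle, stood at 25.9, 7.42 and 31.9 FPKM in EC, against 1.18 and 0.905 in SC and 0.154, 0.0631 and 0.207 in SMF (EC minus SC 3.26, SE 0.52, adjusted p = 0.00195, and EC minus SMF 4.10, SE 0.46, adjusted p = 0.000118). EC replicate 2 stood well below the other EC libraries. Pdgfra, the receptor of fibro-adipogenic progenitors, stood at 2.57, 0.221 and 1.85 FPKM in EC, against 1.31 and 1.70 in SC and 0.184, 0.556 and 0.544 in SMF, and was not called (EC minus SC -0.11, adjusted p = 0.868, and EC minus SMF 0.71, adjusted p = 0.133). Without EC replicate 2 it was called in EC minus SMF (1.17, adjusted p = 0.00188).

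Csf1r stood at 1.81, 0.394 and 2.56 FPKM in EC, against 1.17 and 1.09 in SC and 0.0352, 0.222 and 0.270 in SMF. It was called in EC minus SMF (1.04, SE 0.33, adjusted p = 0.0235) but not in EC minus SC (0.17, adjusted p = 0.753), and the first call was lost without EC replicate 1 or 3 or SMF replicate 1 or 2 (adjusted p = 0.0687, 0.0659, 0.0737 and 0.0543) and under median-of-ratios and upper-quartile scaling (adjusted p = 0.104 and 0.0883). Flt3 was listed at 0.0781, 0 and 0 FPKM in EC, against 0 and 0.223 in SC and 0 in the 3 SMF libraries, and was not tested. With Kit, 2 of the 4 tested receptors of the family were called higher in EC than in SC and 0 lower, 3 were higher in EC than in SMF and 0 lower, and 0 were called between SC and SMF by limma (1, Csf1r, at an unadjusted p under 0.05). Over all tested genes 16.4% were higher in EC than in SC and 55.5% higher in EC than in SMF, and Kit passed the filter only through EC. Between SC and SMF, 56.5% of all tested genes were higher in SC and 8.57% lower. With a pseudocount of 0.1, Pdgfrb (2.28, adjusted p = 0.0131) and Csf1r (2.29, adjusted p = 0.0323) were called higher in SC than in SMF. In TPM, Pdgfra was called higher in SC than in SMF (1.20, adjusted p = 0.0329). In a fit of SC and SMF alone, Pdgfra (0.82, adjusted p = 0.00721) and Csf1r (0.86, adjusted p = 0.00174) were called higher in SC. Without SC replicate 1, 1 receptor was called higher in EC than in SC, and between SC and SMF 3 were called higher in SC without EC replicate 2 and 1 without EC replicate 3.

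All 4 tested receptors were lowest in EC replicate 2 among the EC libraries, while the ligands were mixed. Relative to the mean of EC replicates 1 and 3, EC replicate 2 was lower by a log2(FPKM + 1) difference of -1.82 for Pdgfrb, -1.38 for Pdgfra, -1.18 for Csf1r and -1.11 for Kit. Among the ligands it was -0.58 for Pdgfb, -0.15 for Kitl, -0.12 for Pdgfa and -1.86 for Flt3l, and it was higher for Pdgfd at 0.37 and Csf1 at 0.47. Endothelial markers had a median of 0.08 there but moved both ways, with 2 of 5 below both other EC libraries. Kdr stood at 138, 80.9 and 154 FPKM in EC replicates 1, 2 and 3, and Pecam1 at 169, 276 and 166. All 10 mural cell markers (median -1.82), 7 of 8 macrophage markers (-1.39) and 7 of 8 fibro-adipogenic progenitor markers (-1.31) with a mean of at least 1 FPKM in EC lay below both other EC libraries. The mural sum was 603, 231 and 724 FPKM in EC, against 226 and 283 in SC and 29.2 to 30.0 in SMF. In EC the gene Rgs5 gave 392, 153 and 473 of it, against 11.7 and 4.81 in SC. Most of the SC sum was Acta2 (135 and 194) and Notch3 (58.8 and 68.7). The fibro-adipogenic sum was 174, 124 and 202 in EC, against 259.5 and 256 in SC and 23.5 to 55.3 in SMF. Most of it in EC was Ly6a (94.5, 104.5 and 116, against 1.65 and 1.09 in SC). Most of it in SC was Col3a1 (108 and 113) and Dpt (103 and 95.5). Different genes made up these sums in EC and SC, so the sums do not compare cell content between them. The mural, macrophage and fibro-adipogenic lists include Pdgfrb, Csf1r and Pdgfra themselves, in that order. The part of these cells in the receptor values was not tested. Fewer genes were detected in EC replicate 2 over the whole library, as given above. Whether these shifts go beyond that was not tested. Per the labels, 1 sample had lower RNA quality, and it is not named. Without EC replicate 2, Pdgfb, Pdgfd, Kitl, Kit and Csf1 were called higher in EC than in SC and SMF as before.

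**Figure D5:**
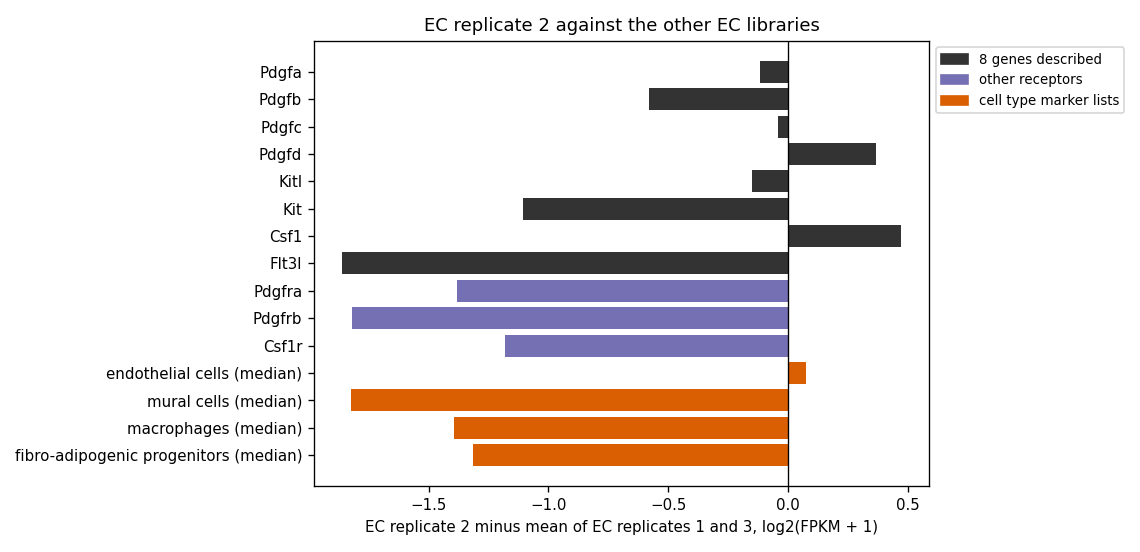
EC replicate 2 minus the mean of EC replicates 1 and 3 in log2(FPKM + 1) (x axis) for the 8 genes, for 3 receptors and as the median of 4 marker lists. Pdgfrb at -1.82, Csf1r at -1.18 and the mural list at -1.82 were far below 0, while Pdgfd at 0.37, Csf1 at 0.47 and the endothelial list at 0.08 were above it.

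Among other ligands and receptors of the same target cells, Csf2rb, the shared beta subunit of the receptors for GM-CSF, IL-3 and IL-5, stood at 15.1, 39.1 and 21.0 FPKM in EC, against 0.344 and 0.662 in SC and 0.0173 to 0.0653 in SMF (EC minus SC 4.02, adjusted p = 8.19e-05). Il34, the other ligand of Csf1r, stood at 2.28, 0.775 and 3.06 FPKM in EC, against 0.267 and 0.442 in SC and 0, 0.252 and 0 in SMF. Its call in EC minus SC (1.09, adjusted p = 0.0391) held under 3 of 14 alternatives, while EC minus SMF (1.41, adjusted p = 0.00408) held under all 14. Pdgfrl, a PDGF receptor-like gene, was lower in EC at 0.984, 0.303 and 0.746 FPKM, against SC libraries at 6.58 and 7.49, and its SMF values were listed at 0 (EC minus SC -2.28, adjusted p = 0.000102). Of the 5 tested genes of this list, 3 were higher and 1 lower in EC than in SC, and 5 were higher in EC than in SMF. Pdgfrl and the GM-CSF receptor gene Csf2ra, 2 of the 5, were higher in SC than in SMF. Over all tested genes 16.4% were higher and 21.2% lower in EC than in SC. Against SMF, 55.5% of all tested genes were higher in EC and 56.5% higher in SC. Csf2rb, Csf3 and Il34, the 3 higher in EC than in SC, reached 1 FPKM only in EC and so passed the filter only through EC. Nothing more is read from these counts. Csf3, which encodes the growth factor G-CSF, was the other gene higher in EC than in SC (0.91, adjusted p = 0.0422), and its call held under 2 of 16 alternatives. The count higher in EC than in SC was 1 without EC replicate 3 or any single SC or SMF library. The count higher in EC than in SMF was 3 without EC replicate 1 or EC replicate 3, where 4 genes were tested, and that higher in SC than in SMF was 4 without EC replicate 2 and 1 without either SC library.

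Of 10 tested co-receptors and proteases that free or shed these ligands, 3 were higher and 3 lower in EC than in SC (median -0.07, against -0.11 over all tested genes). Over all tested genes 16.4% were higher and 21.2% lower, and nothing is read from a count this small. Nrp1, a co-receptor for VEGF and PDGF ligands, stood at 202, 139 and 208 FPKM in EC, against 5.75 and 5.32 in SC and 3.44, 2.48 and 3.07 in SMF (EC minus SC 4.79, adjusted p = 3.11e-06). The sheddase gene Adam10 was also higher in EC (1.28, adjusted p = 0.00444), as was the convertase gene Pcsk7 (0.79, adjusted p = 0.0243), though its call held under 8 of 16 alternatives and was lost without EC replicate 2 or 3 or SC replicate 1. Plau, the urokinase that can activate PDGF-D, stood at 7.60, 7.09 and 4.88 FPKM in EC, against 46.5 and 50.3 in SC and 4.41, 7.69 and 7.27 in SMF (EC minus SC -2.73, adjusted p = 0.00013). Mmp2 (-3.56, adjusted p = 9.26e-06) and the endocytic receptor gene Lrp1 (-2.93, adjusted p = 0.00879) were likewise lower in EC. Plat, the activator of PDGF-C, was not called between EC and SC (-0.14, adjusted p = 0.797). Against SMF, 9 of the 10 were higher in EC and 10 were higher in SC, where 55.5% and 56.5% of all tested genes were higher. Under median-of-ratios scaling 6 were higher and 1 lower in EC, and 8 higher and 1 lower in SC, among 9 tested. There 32.0% of all tested genes were higher and 28.4% lower in EC, and 26.8% higher and 25.5% lower in SC.

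Of 33 tested genes that act below the receptors, 31 were higher and 1 lower in EC than in SMF, and 29 were higher and 1 lower in SC than in SMF. Over all tested genes 55.5% were higher in EC and 56.5% higher in SC. The medians were 2.01 and 1.35, against 0.85 and 0.93 over all tested genes, and 2 of the 33, Pik3cb and Plcg2, passed the filter only through EC. Under median-of-ratios scaling these counts were 19 higher and 4 lower in EC and 14 and 6 in SC, among 34 tested, where 32.0% of all tested genes were higher and 28.4% lower in EC, and 26.8% higher and 25.5% lower in SC. The gene lower in EC and in SC was Stat5b, at 7.85, 8.71 and 7.91 FPKM in EC, against 18.1, 19.1 and 17.3 in SMF (-1.07, adjusted p = 0.00011), with SC at 10.6 and 11.2 (SC minus SMF -0.69, adjusted p = 0.00236, lost in the TPM table with an adjusted p of 0.0698). Among those higher were Akt1, a survival kinase, by 2.45 in EC and 2.35 in SC (adjusted p = 1.04e-05 and 3.54e-05), and Stat3, by 1.44 and 1.54 (adjusted p = 4.21e-05 and 7.2e-05). The calls of Akt1 held under all 16 alternatives, whereas both calls of Stat3 were lost under median-of-ratios and upper-quartile scaling, where its differences fell as low as 0.17 in EC and 0.09 in SC (highest adjusted p = 0.45 and 0.729).

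Between EC and SC, 12 of the 33 signalling genes were higher and 5 lower in EC (median 0.34), where 16.4% of all tested genes were higher and 21.2% lower. Under the 3 other scalings these counts were 13 and 4 (among 34 tested), 10 and 5, and 15 and 2, with medians over all genes given above. In the same order, 17.9%, 15.2% and 20.4% of all tested genes were higher in EC, and 15.25%, 19.9% and 12.2% lower. Lyn, a Src family kinase used by Kit, stood at 35.2, 26.7 and 32.4 FPKM in EC, against 0.457 and 1.40 in SC and 0, 0.0418 and 0.0458 in SMF (EC minus SC 4.11, adjusted p = 8.74e-06). The kinase gene Jak2 (1.56, adjusted p = 0.000534), the adaptor gene Nck1 (1.63, adjusted p = 0.000211) and Sh2b3, an adaptor that restrains Kit signalling (1.50, adjusted p = 0.00131), were higher in EC. The phosphoinositide kinase subunit genes Pik3r1 (-0.82, adjusted p = 0.00352) and Pik3r2 (-1.88, adjusted p = 0.00134), the Ras inhibitor gene Spred1 (-1.16, adjusted p = 0.00259) and the adaptor gene Gab1 (-0.57, adjusted p = 0.0239) were lower in EC. The call of Gab1 held under 9 of 16 alternatives and was lost without EC replicate 1 or either SC library.

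The genes with profiles nearest to each of the 7 tested genes were found by the root mean square difference of log2(FPKM + 1), centred on its mean over the 8 libraries. Nearest to Kitl were Itga1 (0.12) and Jam2 (0.13), to Pdgfb Car8 (0.08) and Ifi203 (0.09), and to Pdgfd Gngt2 (0.11) and Lrrc8c (0.12), all with group means of at least 18.0 FPKM in EC and at most 1.25 in SC and SMF. Nearest to Pdgfa were Thop1 (0.09) and Hspa9 (0.11), to Csf1 Smap2 (0.14) and Lamb2 (0.15), to Kit Neu1 (0.14) and Naalad2 (0.16), and to Flt3l Bin2 (0.24) and Ebf2 (0.28). With 8 libraries in 3 groups these distances mostly describe the group means.

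In the authors' deposited table, the EC specificity score, whose formula is not given in the sources used here, was 1.69 for Kitl, 1.26 for Pdgfd, 1.12 for Pdgfb, 0.602 for Kit, 0.417 for Csf1 and 0.211 for Flt3l. The authors' deposited table gives Pdgfa an EC score of -0.262 and an SC score of 0.224, and gives Pdgfc an SC score of 0.350.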

How the data were processed

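RNA of 8 mouse libraries (3 EC, 2 SC, 3 SMF, by sample title) was sequenced as pairs of 50 bp after random priming of 10 ng of RNA, ribosomal cDNA removal and a stranded kit, per the labels' protocols, and the labels state an expected read number for each. Per the labels, 1 unnamed sample fell short of the RNA quality of the others. Per the submitters' processing notes, FastQC, Trimmomatic, HISAT2, StringTie and bedtools were used with build mm10. The sources used here give no versions, roles or strand settings.

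The deposited gene table holds FPKM, the deposited second table TPM and the authors' specificity score for 46435 loci, and the deposited transcript table FPKM and read coverage for 89871 transcripts, with 25348 transcript numbers absent. Where the listed transcripts of a gene were complete (Pdgfc, Pdgfd, Csf1 and Flt3l), its gene FPKM equalled their length-weighted sum over 1 fixed length, within 1 percent in every library, so a short transcript counts for less there than in TPM. Aligned bases were taken from coverage over FPKM, and fragments as coverage times length over 100 bases, which assumes untrimmed reads and covers counting error only.

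limma 3.58.1 (R 4.3.3) with a mean-variance trend was fitted to log2(FPKM + 1) of the 16700 genes with at least 1 FPKM in at least 2 libraries, with all 8 libraries, 1 mean for each population and no covariate, so that the 2 SC libraries borrow the spread of the others. Tests were two-sided, adjusted over all tested genes, and checked on simulated data. Every member, every receptor of the family, and, of each other list, up to 4 called genes with the highest mean in each direction of each comparison were named, along with overlapping neighbours and the 2 nearest profiles. Plat, Cpa3, Hdc, Tpsb2, Pik3cb, Plcg2, Kcne3, Pf4, Gp9, Rgs5, Acta2, Notch3, Ly6a, Col3a1, Dpt and Lyz2 were chosen after their values were seen. So were Kdr, Pecam1, Tek, Vcam1, Itga7, Pax7 and Calcr. The genes and lists were chosen with earlier results of these data known. Alternatives were a pseudocount of 0.1, no filter, 3 scalings, the TPM table, fits of 2 groups, a replicate block and leaving out each library. Motifs and the genes shown by promoter were chosen after the values were seen. A planned comparison of protein sequences was not run, and proteins are not analysed here.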

Additional observations from a re-analysis of the deposited data

How the results depend on the processing

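Over 21 differences (7 genes in 3 comparisons) and up to 16 alternatives each, 326 values were obtained, of which 298 kept their direction and their side of the threshold, 14 lost their call, 4 gained one and 10 changed sign, and 12 differences kept both in all. All sign changes were in SC minus SMF. With libraries rescaled by the median of ratios, by the upper quartile, or by totals that omit the 50 top genes of each population, Pdgfa stood at -0.78, -0.48 and -0.30 and Pdgfb at -0.64 (adjusted p = 0.0208 by limma), -0.46 and -0.33, and under the first Csf1 stood at -0.12 and Flt3l at -0.0013. Flt3l stood between -0.19 (without SC replicate 3) and 0.73 (without SC replicate 1) when 1 library was left out. The count higher in SC than in SMF, 3 as deposited, was 0 under each of these scalings, and the count lower, 0 as deposited, was 2 and 1 under the first 2 of them. With no filter, the count lower in EC than in SC was 2, against 1 with it, since Pdgfc was then tested. Over all genes the share lower was 10.8% without the filter and 21.2% with it. With a pseudocount of 0.1, Pdgfd was called higher in SC than in SMF (1.33, adjusted p = 0.00902). The cause of these changes was not tested.

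Leaving out 1 library at a time gave 4042 to 6368 calls over all genes in EC minus SC (6288 with all, 4042 without SC replicate 1 and 4115 without SC replicate 3). With all 8 libraries, 16.4% of all tested genes were higher in EC than in SC. The shares were 55.5% for EC above SMF and 56.5% for SC above SMF. With 1 SC library left, it is assumed to vary like the other groups. Members called higher in EC than in SC then numbered 4 to 6, higher in EC than in SMF 5 to 6, and higher in SC than in SMF 2 to 3.

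Same-numbered libraries of different groups correlated at -0.058 to 0.091 in their deviations from the group means (7 pairs). Not every library correlated best with its own number. With 2 SC libraries, the deviations of 1 mirror those of the other, so this check cannot exclude pairing. The numbers were not used as pairs in the main fit, and a fit with them as a block is given next. With the replicate block, 5515, 11020 and 10279 genes were called in EC minus SC, EC minus SMF and SC minus SMF, against 6288, 11079 and 10867 without it. In the block Flt3l was called in EC minus SMF (1.05, adjusted p = 0.0492), Kitl was not called in SC minus SMF (0.61, adjusted p = 0.0543), and Flt3l stood at -0.086 in SC minus SMF.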

Other observations

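Endothelial tip cell genes, expressed at the front of growing vessels where PDGF-B is also known to be made, were measured as a list of 6. Of these, 4 were called higher in EC than in SC and 0 lower, where 16.4% of all tested genes were higher. Dll4, Apln and Kcne3, a potassium channel subunit gene, passed the filter only through EC, so nothing more is read from this count. It was 3 without EC replicate 3 or any single SC or SMF library. Dll4, a Notch ligand, stood at 54.7, 31.0 and 52.6 FPKM in EC, against 0.767 and 0.498 in SC and 0.289, 0.109 and 0.475 in SMF (EC minus SC 4.81, adjusted p = 8.65e-06 by limma). Angpt2 was higher in EC by 2.97 (adjusted p = 1.1e-05), Esm1 by 3.09 (adjusted p = 0.000625) and Apln by 1.13 (adjusted p = 0.0404), the last held under 6 of 16 alternatives and was lost without any 1 library except EC replicate 2. Cxcr4, a chemokine receptor gene, stood at 17.4, 5.47 and 16.8 FPKM in EC, against 20.5 and 22.8 in SC and 0.188, 0.192 and 0 in SMF, and was not called between EC and SC (-0.82, adjusted p = 0.176). Against SMF, 5 of the 6 were higher in EC and 2 were higher in SC, Cxcr4 and Angpt2, where 55.5% and 56.5% of all tested genes were higher.

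Platelets are a known source of PDGF. Their 5 markers summed to 5.32, 2.24 and 3.41 FPKM in EC, against 1.86 and 0.549 in SC and 0.111 to 0.707 in SMF. The markers did not share an order among the EC libraries, with Pf4, a platelet chemokine, at 3.36, 0.547 and 0 and Gp9, a platelet membrane glycoprotein, at 0.675, 1.35 and 1.30 in EC replicates 1, 2 and 3.

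The microRNA gene Mir7213, which lies within Pdgfb, was listed at 1.05, 1.38 and 5.30 FPKM in EC, against 0 and 2.78 in SC and 0 in the 3 SMF libraries. Its values may hold reads of Pdgfb.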
